A study of Mus musculus with 6 samples.

Results

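Arterial endothelial cells of the mouse brain surface and of the dura and skull were chosen from 6 single-cell libraries by the transcripts they held. A member had at least 500 genes, at most 10% of its unique molecular identifiers (UMIs, counted mRNA molecules) on mitochondrial genes and a UMI of at least 2 of the endothelial genes Pecam1, Cldn5, Flt1 and Ly6c1. It also had a UMI of at least 2 of the arterial genes Gkn3, Sema3g, Bmx, Cytl1, Stmn2 and Fbln5, and no UMI of Ptprc, a leukocyte gene, or Cnn1, a smooth muscle gene. This rule found 283 cells, out of 1141 cells that met its endothelial terms, 8804 cells kept and 17560 barcodes in all. The 858 endothelial cells with fewer than 2 of the arterial genes are called other endothelial cells here.

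All libraries came from untreated wild-type C57BL6 mice, adults of either sex, and each pooled the tissue of several mice. The 4 cortical surface-associated libraries were labelled brain, and the 2 bone-associated libraries were labelled dura and skull. The mice were not perfused. Live, nucleated cells were sorted with a DNA dye and propidium iodide, a gate that would leave out red cells without a nucleus, and no gate for endothelial identity was used. The library is the replicate throughout, the spread between single mice is not seen, and nothing in the sources used here ties a library number of one preparation to the same number in the other.

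Cortical surface libraries 1 to 4 gave 18, 34, 9 and 47 arterial cells, and bone-associated libraries 1 and 2 gave 55 and 120. Their summed UMIs were 176990, 327070, 66838 and 197276 on the cortical surface and 592932 and 946396 in the bone-associated libraries. The median arterial cell held 7723, 7420, 4652 and 4007 UMIs in the 4 cortical surface libraries and 8939 and 6995 UMIs in the 2 bone-associated ones, each above the median of the other endothelial cells of its library. Cortical surface library 3 stood apart, since 30.7% of the UMIs of its 9 arterial cells were hemoglobin transcripts, against at most 0.412% in the other 5 libraries. It had fewer than 10 arterial cells and entered no test, and its values are printed beside the rest. Over the whole library, hemoglobin made up 84.6% of the UMIs in cortical surface library 3 and 71.9% in library 4, which was tested. No other library passed 0.52%. Across the 15 pairs of libraries 35 cell barcodes were shared, and none of them was an arterial cell.

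Arteries carry blood under pressure, and their endothelium differs from that of capillaries and veins in a set of genes kept on by Notch signalling. In that pathway the ligands Jag1, Jag2 and Dll4 on one cell bind Notch receptors on the next, and the cleaved receptor acts with Rbpj on targets such as Hey1, Hey2 and Hes1, while the venous factor Nr2f2 works against the pathway. Arterial cells also lay down elastic fibres and are coupled to each other and to smooth muscle by the connexins Gja4 and Gja5. Endothelium of the brain and pia forms a barrier, with sealing junctions and many transporters held on by Wnt signalling through beta-catenin, whereas vessels of the dura lack that barrier and many are fenestrated.

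Promoters are shown for a Notch target and for a gene the cells were chosen by, as examples that hold the letters searched. RefSeq promoters (GRCm38.p6) were found for 32 of 40 genes looked up, the 6 arterial genes and those of the arterial and Notch lists, and 5 of the 6 arterial genes were among them. The letters TGGGAA, a core to which the Notch factor Rbpj binds, were searched on both strands from 250 bases before to 10 bases after each start. They were present in 8 of 36 promoters of these genes and in 22.4% of all 32851 promoters, so the share was near that of all promoters. Of the 5 arterial genes with a promoter, 2 held the letters, Bmx and Fbln5, and Gkn3, Sema3g and Cytl1 did not. The letters CACGTG, a core recognized by Hey factors, were in 3 of the 36 and in 6.34% of all promoters. The 2 sequences shown are the promoter of Hey2, a Notch target described below, and that of Bmx, a kinase gene and 1 of the 6 arterial genes. The matches to TGGGAA or to its reverse complement are in capitals, and they begin at -207 and -3 relative to the start of Hey2 and at -178 relative to that of Bmx. Hey2 is shown from chr10:30842774-30843033 and Bmx from chrX:164258184-164258443, both on the minus strand and 5′ to 3′ along the gene.
Hey2: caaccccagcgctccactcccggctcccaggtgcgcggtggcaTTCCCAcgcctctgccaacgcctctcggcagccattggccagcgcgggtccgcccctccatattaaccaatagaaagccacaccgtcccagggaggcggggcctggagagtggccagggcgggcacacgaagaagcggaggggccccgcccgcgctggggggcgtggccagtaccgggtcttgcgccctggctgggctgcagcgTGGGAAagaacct
Bmx: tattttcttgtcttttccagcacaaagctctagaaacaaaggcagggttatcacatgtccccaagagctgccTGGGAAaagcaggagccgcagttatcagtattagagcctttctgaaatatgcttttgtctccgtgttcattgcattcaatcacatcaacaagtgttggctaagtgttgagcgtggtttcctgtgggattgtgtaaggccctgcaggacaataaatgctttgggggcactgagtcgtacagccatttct
A match of letters is a description of the sequence and not a binding site shown by these data.

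The 6 arterial genes chose the cells, so their values describe the members and were not tested. All levels below are UMIs summed over the cells of a class in a library and scaled to CPM (UMIs per 1000000 UMIs of the sum) with one TMM normalization over all 12 sums, and a level is compared between libraries and not between genes. Gkn3 (chromosome 6, 87383256 to 87388935, mm10), which codes for a secreted gastrokine, stood at 1235, 1579, 693 and 2366 CPM in the arterial cells of cortical surface libraries 1 to 4 and at 537 and 558 CPM in those of the 2 bone-associated libraries. Every cortical surface library was above both bone-associated libraries. Sema3g (chromosome 14, 31217860 to 31230352), a secreted semaphorin, stood at 246, 242, 67.6 and 311 CPM on the cortical surface and at 459 and 352 CPM in the bone-associated cells, where both libraries were above all 4 of the others. Bmx (chromosome X, 164192842 to 164258193), a cytoplasmic tyrosine kinase, was at 497, 325, 287 and 626 CPM against 278 and 250.0 CPM, and the lowest cortical surface value, from the library with 9 cells, was the one nearest to the bone-associated values.

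Cytl1 (chromosome 5, 37735519 to 37739820), a small secreted protein, ranged widely between libraries of one kind, with 639, 314, 152 and 513 CPM on the cortical surface and 257 and 751 CPM in the bone-associated libraries, and the preparations overlapped. Stmn2 (chromosome 3, 8509360 to 8561606), a microtubule regulator best known from neurons, was at 669, 456, 507 and 739 CPM and at 425 and 563 CPM and overlapped as well. Fbln5 (chromosome 12, 101746565 to 101819055), an elastic fibre protein, was at 1382, 1072, 609 and 1119 CPM and at 692 and 956 CPM. In the other endothelial cells no library passed 32.7 CPM of Gkn3, 10.2 CPM of Bmx or 29.4 CPM of Fbln5.

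Per cell, a Gkn3 UMI was present in 83 of 108 cortical surface arterial cells (76.9%) and in 61 of 175 bone-associated ones (34.9%). With every cell thinned to 1500 UMIs the shares were 58.7% and 21.6%, and in cells of the same preparations with a Ptprc UMI, which should lack Gkn3, they were 0.307% and 0.405% before thinning, at median depths of 7194 and 6966 UMIs against 5696 and 7419 UMIs in the arterial cells. The pooled shares of Fbln5 and Sema3g ran the other way, with a UMI in 82.3% and 81.1% of bone-associated arterial cells and in 60.2% and 70.4% of cortical surface ones. After thinning, Fbln5 was in 59.6% and 47.1% and Sema3g in 44.4% and 36.5%. For Fbln5 single cortical surface libraries ranged from 44.4% to 77.8%, the latter in library 1, which was at 66.7% after thinning. The CPM level of Fbln5 was higher in cortical surface libraries 1, 2 and 4 than in both bone-associated ones. A member without Gkn3 had to hold at least 2 of the other arterial genes, so these shares are tied to that of Gkn3.

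The number of the 6 genes per member spread over the whole range the rule allows. Of the 283 cells, 61 had 2 of the genes, 67 had 3, 60 had 4, 39 had 5 and 56 had all 6. Cells with 4 or more made up 88.9%, 58.8%, 44.4% and 59.6% of the arterial cells in the 4 cortical surface libraries and 54.5% and 47.5% in the bone-associated ones. Cells just inside the threshold, with 2 genes, were 13 of 108 on the cortical surface and 48 of 175 in the bone-associated libraries. Just outside it, 81 and 123 endothelial cells had 1 of the genes. Between cells with 1 and with 2 genes the levels went from 17.1 to 129 CPM of Gja4 and from 80 to 462 CPM of Edn1 on the cortical surface, and from 40.3 to 120.5 and from 139.5 to 691 CPM in the bone-associated libraries (cells pooled, scaled to their own total). Not every gene followed the classes at this step, since on the cortical surface Vegfc went from 54.3 to 21.5 CPM (38 and 2 UMIs), Slc2a1 from 966 to 1408 and Plvap from 77.1 to 312, the last through 1 cell that held the 29 UMIs of the 13 cells. In the bone-associated libraries Vegfc went from 81.5 to 74.7 CPM, Sox17 from 322 to 354 and Vwf of the venous list from 1398 to 1677. Plvap fell from 1205 to 870 CPM and Nr2f2 from 309 to 190 CPM there, so the 48 cells with 2 genes still held both. The cells with all 6 genes held 239.7 CPM of Gja4 on the cortical surface and 507 CPM in the bone-associated libraries, and the latter held 40.1 CPM of Plvap. These values describe the cut and were not tested.

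**Figure D1:**
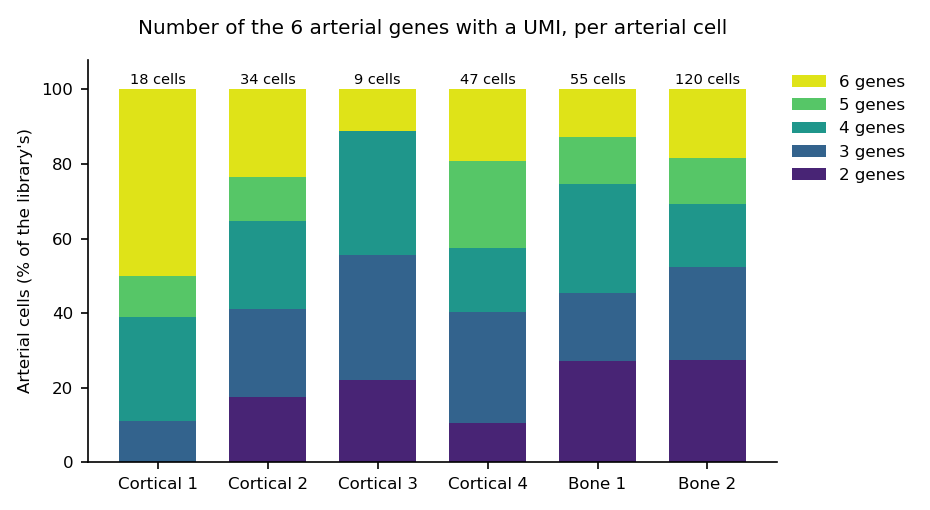
Share of each library's arterial cells (%, vertical axis) by how many of the 6 arterial genes had a UMI, with the number of cells above each bar (4 cortical surface and 2 bone-associated libraries on the horizontal axis). Cells with 2 genes are absent from cortical surface library 1 and make up 27.3% and 27.5% of the bone-associated arterial cells.

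The share of endothelial cells that were arterial asks how the vessels sampled by the preparations differ. It was 25.4%, 16.9%, 11.1% and 22.8% in cortical surface libraries 1 to 4 and 34.2% and 28.5% in the bone-associated libraries. Exact 95% Clopper-Pearson intervals ran from 5.21% to 20.0% for the lowest of these libraries and from 26.9% to 42.0% for the highest, and cover counting error only. Both bone-associated libraries were above the 4 cortical surface ones under the rule as given, with means of 31.3% ± 4.0 (SD, n = 2) and 19.05% ± 6.36 (SD, n = 4). The exact two-sided permutation test gave p = 0.133, the smallest that 15 arrangements of 6 libraries allow, so this design cannot pass 0.05. Among cells thinned before the rule was applied the means were 20.3% and 14.8%, and with at least 3 of the 6 genes required they were 22.8% and 17.1%. The preparations then overlapped, since cortical surface library 1 was at 20.9% against 18.3% in bone-associated library 2 when thinned, and at 25.4% against 24.8% and 20.7% with 3 genes. With at most 5% mitochondrial UMIs it was at 28.9% against 26.2% in bone-associated library 2.

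To describe what arterial cells shared beyond the 6 genes, they were compared with the other endothelial cells of the same library over 5 libraries. The classes were divided by the rule, so genes that accompany the 6 genes had to differ, and the p-values set that difference against the spread between libraries. The Notch ligands Jag1, Jag2 and Dll4 and the connexins Gja4 and Gja5 were higher in arterial cells. Of 15 elastic fibre and arterial matrix genes 9 were higher and 1 was lower. Of 12 venous genes 5 were lower, as were 8 of 24 barrier transporter and junction genes. Of 10 capillary genes 4 were lower and 2 higher. Of 7726 genes tested outside the rule, 381 (4.93%) were called, which asks for an adjusted p below 0.05 and a log2 fold change of 1.3 or more in size, 212 (2.74%) higher and 169 (2.19%) lower in arterial cells (edgeR quasi-likelihood test, Benjamini-Hochberg adjustment). The median log2 fold change over all genes was -0.03. Of 25 immediate-early and heat shock genes 3 were higher and none was lower, with a median of 0.82. Their summed level was higher in the arterial cells of every library (16341 against 6300 CPM in cortical surface library 4) but bone-associated library 2 (28992 against 30409 CPM). The part of handling in this comparison was not tested.

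Of the 22 arterial genes outside the rule 15 were higher, none was lower and 7 were not called, with a median log2 fold change of 1.67. Among the Notch ligands, Jag1 stood at 556, 382, 254 and 330.3 CPM in arterial cells of the cortical surface and at 432 and 349 CPM in bone-associated ones, against 84.3, 71.5, 32.7 and 41.7 CPM (cortical surface) and 59.1 and 52.9 CPM (bone-associated) in the other endothelial cells. All 6 libraries had the higher value in the arterial cells, and the log2 fold change was 2.74 ± 0.13 (SE, adjusted p = 3.45e-07). Jag2 was higher by 1.96 ± 0.14 and Dll4, the tip cell and arterial ligand, by 1.40 ± 0.36 (adjusted p = 7.06e-06 and 0.027). Of the receptors neither was called, with log2 values of 0.61 for Notch1 and 1.22 for Notch4, whose adjusted p-values were under 0.05 but whose folds were under the threshold.

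Of the targets, Hey1 stood at 63.9, 85.5, 0 and 153 CPM in cortical surface and 84.6 and 86.0 CPM in bone-associated arterial cells, against at most 17.5 CPM in the other endothelial cells. Only the library with 9 arterial cells held no Hey1 UMI in them, and the difference over the tested libraries was 2.82 ± 0.27 on the log2 scale (adjusted p = 6.31e-05). Hey2, whose promoter is printed above, was higher by 3.06 ± 0.47 (adjusted p = 0.00127). Hes1, a target in many cell types, was not called (log2 fold change 0.50, adjusted p = 0.267), and neither was Nrarp (0.68, adjusted p = 0.457). On the Notch pathway list as a whole, 5 of 16 tested genes were higher and none was lower, with a median of 0.56. The call of Dll4 was lost without any 1 of the 3 cortical surface libraries tested (adjusted p = 0.0561, 0.0882 and 0.0762).

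The connexins divided by member. Gja5, which forms gap junctions of arterial endothelium, stood at 9.84, 37.1, 16.9 and 49.3 CPM in the cortical surface and 55.9 and 91.7 CPM in the bone-associated arterial cells and had no more than 2.97 CPM in other endothelial cells of any library. Gja4, its usual partner, was at 187, 197, 84.5 and 325 CPM on the cortical surface and 209.9 and 401 CPM in the bone-associated libraries and was higher by 3.55 ± 0.32 (adjusted p = 4.34e-05). Gja5 was 1 of the largest fitted changes at 7.51 ± 0.48, a value that depends on the few UMIs of the other cells, as does that of Kcnn4 below. Gja1 and Gjc1 were not called in this comparison.

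Other arterial regulators and signals were higher as well. Sox17, a transcription factor of arterial fate, was at 807, 775, 575 and 646 CPM on the cortical surface and 694 and 616 CPM in the bone-associated arterial cells, above the other endothelial cells in every library, with a log2 fold change of 1.37 ± 0.13 (adjusted p = 5.69e-05), which was just under the fold threshold without cortical surface library 1 or bone-associated library 1. The lymphatic growth factor Vegfc was higher by 2.36 ± 0.17 and the netrin receptor Unc5b by 1.88 ± 0.33 (adjusted p = 9.24e-06 and 0.00299). Efnb2, the membrane ligand that marks arteries against Ephb4 of veins, was higher by 1.52 ± 0.32 (adjusted p = 0.0101), while Ephb4 itself was not called (-0.47, adjusted p = 0.0617). Nrp1, Mecom, Cxcl12 and Acvrl1 of the same list were not called.

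Of 18 tested vasoactive genes 3 were higher in arterial cells, 2 were lower and 13 were not called. Edn1, the vasoconstrictor peptide endothelin, stood at 1426, 447, 1251 and 1213 CPM on the cortical surface and at 843 and 857 CPM in bone-associated arterial cells, against 125, 121, 146 and 83.4 CPM (cortical surface) and 136 and 138 CPM (bone-associated) in the other endothelial cells, a difference of 2.89 ± 0.25 (adjusted p = 3.13e-05). Ace, which makes angiotensin II, was higher by 2.06 ± 0.26, and Kcnn4, a calcium-activated potassium channel of the endothelium, by 5.71 ± 0.43 (adjusted p = 0.000366 and 1.12e-05). Aplnr, the apelin receptor, was lower by 4.79 ± 0.32 (adjusted p = 5.24e-06). Nos3, the endothelial nitric oxide synthase, was not called at 0.60 (adjusted p = 0.0453).

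Matrix genes were tested as a list of their own. Of 15 tested elastic fibre and arterial matrix genes 9 were higher, 1 was lower and the median was 1.97. Smooth muscle markers, from a cell type that also makes elastic fibres, summed to 1107, 385 and 830 CPM in the arterial cells of cortical surface libraries 1 and 2 and bone-associated library 1, against 381, 263 and 77.5 CPM in the other endothelial cells, and were lower in the arterial cells of cortical surface libraries 3 and 4 and bone-associated library 2. Their part in the matrix values was not tested. Mgp, an inhibitor of calcification that binds BMP proteins, was at 8932, 9548, 7422 and 11155 CPM in cortical surface and 5707 and 9950.2 CPM in bone-associated arterial cells, against 425, 163, 199 and 159 CPM (cortical surface) and 1182 and 1989.7 CPM (bone-associated) in other endothelial cells. The classes did not overlap, although the bone-associated other cells held several times the Mgp of the cortical surface ones, and the log2 fold change was 4.19 ± 0.61 (adjusted p = 0.00096). Eln, which codes for elastin, was higher by 2.60 ± 0.36, Fbln2, a fibulin, by 3.66 ± 0.51, and Lox, the enzyme that crosslinks elastin and collagen, by 3.0 ± 0.40 (adjusted p = 0.000698, 0.000711 and 0.000503). Vwa1, a matrix protein of basement membranes, was the member that was lower (-1.30 ± 0.18, adjusted p = 0.000807), and it was under the fold threshold without the first or the second bone-associated library (-1.21 and -1.12). Of 15 basement membrane genes 1, Nid2, was lower and none was higher, and the call of Nid2 was lost in 4 of the 5 fits that left out a library (adjusted p from 0.0512 to 0.165).

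The 10 largest fitted rises with at least 50 UMIs and a higher value in all 5 tested libraries were Gja5, Pi16, Tox2, Kcnn4, Lrmp, Dkk2, Scara3, Shtn1, S100a4 and Tmem178. Pi16, a secreted peptidase inhibitor, was at 408, 199.5, 287 and 394 CPM in cortical surface and 181 and 181 CPM in bone-associated arterial cells and at most 3.17 CPM in others (log2 fold change 6.86 ± 0.35, adjusted p = 5.70e-07). S100a4, a calcium-binding protein, was at 236, 202, 186 and 202 CPM on the cortical surface and 317 and 375 CPM in the bone-associated libraries, against 1.92, 1.39, 2.97 and 0 CPM (cortical surface) and 9.23 and 24.9 CPM (bone-associated) in other endothelial cells. Dkk2, a secreted modulator of Wnt signalling, had no UMI in the other cells of the cortical surface and 2.77 and 3.62 CPM in those of the bone-associated libraries, against 78.7, 105, 84.5 and 78.9 CPM on the cortical surface and 49.1 and 65.4 CPM in the bone-associated libraries in arterial cells. Clu, which codes for the secreted chaperone clusterin, stood at 1353, 1117, 1183 and 1691 CPM on the cortical surface and 1524 and 1627 CPM in the bone-associated libraries in arterial cells and was higher by 3.92 ± 0.61 (adjusted p = 0.00144).

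Several genes of veins were lower. None of 12 tested venous genes was higher and 5 were lower, with a median of -1.20. Nr2f2 was at 19.7, 57.0, 16.9 and 19.7 CPM on the cortical surface and 76.2 and 57.3 CPM in the bone-associated libraries in arterial cells and at 314, 256, 131 and 186 CPM (cortical surface) and 219 and 213 CPM (bone-associated) in the other cells, without overlap, and was lower by 2.19 ± 0.24 (adjusted p = 0.000149). Slc38a5, an amino acid transporter of brain venules, was lower by 3.76 ± 0.41, and Ackr1, the chemokine-binding receptor of venules, by 3.56 ± 0.44 (adjusted p = 0.000134 and 0.000349). Vwf and Vcam1 of the venous list were not called.

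Of 10 capillary genes 4 were lower and 2 higher. Car4, a membrane carbonic anhydrase of capillaries, was lower by 3.87 ± 0.47, Kdr, the main receptor for VEGF, by 1.66 ± 0.19, and the transferrin receptor Tfrc by 2.23 ± 0.24 (adjusted p = 0.00027, 0.000183 and 0.000134). The lipid genes Cd36 and Fabp4 went the other way, at 1.35 and 1.90 (adjusted p = 0.00243 and 0.0109), and both were high in bone-associated arterial cells in particular. Without bone-associated library 1 Cd36 was at 1.18 and not called (adjusted p = 0.0805). Barrier transporters and junction genes had 8 of 24 members lower and none higher, with a median of -0.81. Among them were the organic anion transporters Slco1a4 (-1.51 ± 0.19, and -1.27, under the threshold, without bone-associated library 2) and Slc22a8 (-3.04 ± 0.28), and the glucose transporter Slc2a1 was not called (-0.50, adjusted p = 0.207). The 10 largest fitted falls that met the rule for naming were Ndnf, Aplnr, Car14, Scgb3a1, Car4, Slc38a5, Ackr1, Ralgps2, Apod and Slc22a8.

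**Figure D2:**
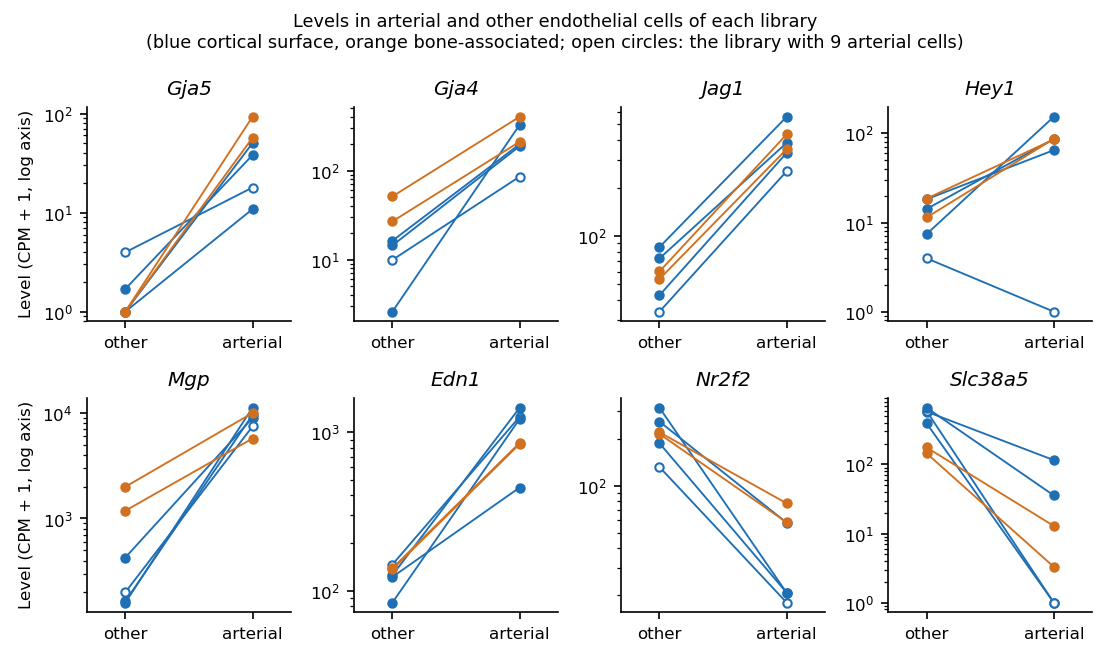
Levels of 8 genes (CPM + 1, log axis) in the other endothelial and the arterial cells of each library, a line joining the classes of 1 library (blue, 4 cortical surface libraries; orange, 2 bone-associated libraries; open circles, the library with 9 arterial cells). The 6 lines rise for Gja5, Gja4, Jag1, Mgp and Edn1 and fall for Nr2f2 and Slc38a5, and for Hey1 the library with 9 arterial cells falls to 0.

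The second question was how arterial cells of the pia and cortex differ from those of the dura and skull, a division the rule did not use. In arterial cells of the cortical surface 10 of 23 barrier genes, 4 of 13 Wnt response genes and Nos1 were higher, and in those of the bone-associated preparation 8 of 14 fenestrated and peripheral endothelial genes, Icam1 and 4 of 25 immediate-early and heat shock genes were higher, while of the 22 arterial genes outside the rule 1, Depp1, was called. Over 3 cortical surface and 2 bone-associated libraries 7906 genes were tested and 293 (3.71%) were called, 132 (1.67%) higher on the cortical surface and 161 (2.04%) higher in bone-associated cells (edgeR, same thresholds), with a median log2 fold change of 0.02 over all genes. The preparations were also dissected from different tissues and made as different libraries, and these cannot be told apart. With 2 bone-associated libraries the count rested on both of them, at 176 without the first and 109 without the second. In the other endothelial cells, whose values are given beside some genes, the same contrast called 511 of 7627 genes (6.7%), 154 (2.02%) higher on the cortical surface and 357 (4.68%) in bone-associated cells. DESeq2 called 159 of the same arterial genes and cells thinned to 1500 UMIs gave 97 of 2803 tested.

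Barrier genes were higher on the cortical surface in 10 of 23 tested, lower in none, and had a median of 0.87. Slc2a1, the glucose transporter of the barrier, stood at 1008, 1394, 744 and 1114 CPM in cortical surface and 350.4 and 133 CPM in bone-associated arterial cells. No library of one preparation overlapped the other, and the log2 fold change was 2.40 ± 0.34 (adjusted p = 0.000101), beside 1.39 ± 0.26 (adjusted p = 0.00211) for the same contrast in the other endothelial cells. Slco1c1, which carries thyroid hormone, was at 477, 467, 676 and 616 CPM on the cortical surface and 112 and 28.7 CPM in the bone-associated libraries and higher by 3.05 ± 0.40 (adjusted p = 4.46e-05). Slco1a4, another organic anion carrier, was higher by 2.09 ± 0.37, and Slc22a8, Slc38a3 and Slc16a1, carriers of organic anions, glutamine and lactate, were higher by 3.60, 2.83 and 1.57. Without the second bone-associated library, the one with the lower levels of these genes, Slco1a4, Slc38a3 and Slc16a1 were not called (adjusted p = 0.0729, 0.125 and 0.459), and Slc16a1 was also lost without cortical surface library 1 (0.0642) or 2 (0.229).

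Junction genes were in the same group. Ocln, the tight junction protein occludin, was at 172, 157, 84.5 and 187 CPM on the cortical surface and at 30.5 and 31.0 CPM in the bone-associated arterial cells, without overlap, and was higher by 2.59 ± 0.31 (adjusted p = 2.12e-05). Lsr, a protein of tricellular junctions, was higher by 1.97 ± 0.29 (adjusted p = 0.000111). In the other endothelial cells the log2 values were 1.58 ± 0.25 for Ocln and 1.44 ± 0.21 for Lsr. The efflux pumps Abcb1a and Abcg2, the lipid carrier Mfsd2a and the junction genes Tjp1, Jam2 and Cgnl1 were not called. Cldn5, the main barrier claudin, belonged to the rule, and its level was 6227, 7202, 6424 and 7941 CPM on the cortical surface and 2531 and 3134 CPM in the bone-associated arterial cells.

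Of 13 Wnt and beta-catenin genes tested 4 were higher on the cortical surface and none was lower, with a median of 1.23. Lef1, the nuclear partner of beta-catenin, was at 187, 134, 169 and 187 CPM on the cortical surface and 93.1 and 17.2 CPM in the bone-associated libraries and higher by 1.78 ± 0.44 (adjusted p = 0.0188). Foxq1, a transcription factor of brain endothelium, was higher by 3.24 ± 0.35 (adjusted p = 5.08e-06). Reck, the membrane protein that passes Wnt7 signals to brain endothelium with Adgra2, was at 393, 234, 270.5 and 345 CPM in cortical surface arterial cells and at 35.6 and 49.3 CPM in bone-associated ones, higher by 3.02 ± 0.32 (adjusted p = 5.08e-06). In the other endothelial cells Reck was at 26.8, 20.8, 41.6 and 25.7 CPM on the cortical surface and 39.7 and 17.6 CPM in the bone-associated libraries and its log2 value was 0.03 ± 0.38 (adjusted p = 0.977). Axin2, Tcf7 and Adgra2 were not called. Without the second bone-associated library Lef1 was not called either (adjusted p = 0.326), nor without cortical surface library 2 (0.0626).

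Nos1, the neuronal form of nitric oxide synthase, was found mostly in cortical surface arterial cells. It stood at 216, 111, 135 and 187 CPM in the 4 libraries there, at 11.9 and 3.44 CPM in bone-associated arterial cells, and at no more than 3.69 CPM in other endothelial cells of any library. A UMI was found in 46 of 108 cortical surface and 7 of 175 bone-associated arterial cells, and no cell held over 10.1% of the cortical surface UMIs. The means were 172 ± 54.4 CPM (SD, n = 3 tested libraries) and 7.65 ± 5.95 CPM (SD, n = 2), and the log2 fold change was 4.66 ± 0.47 (adjusted p = 4.80e-06). All 8 markers of neurons together summed to at most 5.70 CPM in arterial cells of any library, and the source of the Nos1 UMIs was not tested. Nos1 lies on chromosome 5 at 117781032 to 117958840 in mm10.

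The 10 largest rises on the cortical surface that met the rule for naming were Fam46a, Col3a1, Nos1, Lypd1, Col14a1, Sgms2, Laptm5, Foxq1, Edn3 and Slco1c1. Col3a1 and Col14a1 code for fibrillar and fibril-associated collagens, and both were higher on the cortical surface without overlap. Col3a1 stood at 128, 57.0, 16.9 and 83.8 CPM there and at 0 and 4.59 CPM in the bone-associated cells. Col14a1 stood at 34.4, 94.1, 186 and 222 CPM and at 6.77 and 5.73 CPM. The 9 fibroblast markers, led by Col3a1 in cortical surface libraries 1, 2 and 4 and by Serpinf1 in the other 3 libraries, summed to 148, 111, 50.7 and 108 CPM on the cortical surface and to 164 and 177 CPM in the bone-associated arterial cells. Laptm5, a lysosomal protein known from leukocytes, was at 152, 134, 118 and 163 against 15.2 and 17.2 CPM and had a UMI in 48 of 108 and 16 of 175 cells. It made up most of the summed immune markers on the cortical surface, which were 211, 160, 135 and 237 CPM there and 45.7 and 61.9 CPM in bone-associated arterial cells. Edn3, an endothelin, and Ptgis, the prostacyclin synthase, were higher by 3.17 ± 0.47 and 2.70 ± 0.40 (adjusted p = 0.000135 and 0.000174). For Fam46a 1 cell held 47.4% of the cortical surface UMIs, and it was not called without either bone-associated library (adjusted p = 0.152 and 0.124).

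Genes of fenestrated and peripheral endothelium ran the other way, with 8 of 14 tested higher in bone-associated arterial cells, none higher on the cortical surface and a median of -2.31. Plvap (chromosome 8, 71497765 to 71511752), which forms the diaphragms of fenestrae and vesicles, stood at 4.92, 88.4, 16.9 and 4.93 CPM in cortical surface and 476 and 404 CPM in bone-associated arterial cells. The log2 fold change was -3.33 ± 0.47 (adjusted p = 8.19e-05), beside -4.17 ± 0.61 in the other endothelial cells, where the bone-associated libraries held 1401 and 1791 CPM. Of the cortical surface UMIs 85.3% came from a single cell of library 2. Cd36, a fatty acid receptor, was at 0, 2.85, 33.8 and 0 CPM on the cortical surface and 166 and 146 CPM in the bone-associated libraries (adjusted p = 1.70e-06, with 1 UMI in the tested cortical surface libraries), and Fabp4, a fatty acid carrier, was at 9.84, 48.5, 169 and 128 CPM on the cortical surface and 616 and 1113 CPM in the bone-associated libraries (-3.71 ± 0.43, adjusted p = 1.46e-05). The water channel Aqp1 (-3.42 ± 0.47) and the transcription factor Tcf15 (-3.13 ± 0.57) were called as well, and without the second bone-associated library Tcf15 was not (adjusted p = 0.155). Meox2, a homeobox factor that acts with Tcf15 on fatty acid uptake, had no UMI in cortical surface arterial cells and 37.2 and 32.1 CPM in the bone-associated ones, at least 8.63-fold higher there when 3 UMIs over the cortical surface group are taken as the floor. The median of the list is the same with Meox2 at that bound.

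Of 11 tested endothelial inflammatory genes 3 were higher in bone-associated cells (Icam1, Cxcl1 and Irf1) and 8 were not called. Icam1, which binds leukocyte integrins, was at 19.7, 39.9, 0 and 19.7 CPM on the cortical surface and 354 and 242 CPM in bone-associated arterial cells (-3.26 ± 0.35, adjusted p = 5.08e-06). Lrg1, a secreted glycoprotein of venules, was at 0, 22.8, 0 and 19.7 CPM on the cortical surface and 335 and 233 CPM in the bone-associated libraries (-4.05 ± 0.43, adjusted p = 5.08e-06), and Nrp2, a receptor for class 3 semaphorins and Vegfc, was called too (-2.07 ± 0.38, adjusted p = 0.00163, and 0.116 without the first bone-associated library), but it was at 0.14 among arterial cells that held Gkn3. The chemokine Cxcl1 and the interferon factor Irf1 were higher in bone-associated cells by log2 values of -3.04 ± 0.46 and -1.96 ± 0.27, written as cortical surface over bone. Selp, the venular P-selectin, was at 403 and 220.2 CPM in the bone-associated arterial cells and had no UMI on the cortical surface, but only 13 of 175 cells held it and it was below the detection filter. Of 10 tested venous genes 3 were higher in bone-associated cells and 1, Tmem252, on the cortical surface, a call lost without either bone-associated library (adjusted p = 0.285 and 0.259) or without cortical surface library 2 (0.363). The other 6 were not called, Nr2f2 among them (-0.77, adjusted p = 0.377).

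Of 16 tested vasoactive genes 1 was higher on the cortical surface, 3 were higher in bone-associated cells and 12 were not called, and of 4 connexins 1 was called. The endothelin receptor Ednrb was at 4.92, 17.1, 0 and 9.86 CPM on the cortical surface and 117 and 116 CPM in the bone-associated libraries (-3.16 ± 0.41, adjusted p = 4.70e-05) and the connexin Gja1 at 0, 25.7, 0 and 14.8 CPM on the cortical surface and 188 and 143 CPM in the bone-associated libraries (-3.28 ± 0.45, adjusted p = 6.58e-05), both higher in bone-associated cells without overlap. The inducible cyclooxygenase Ptgs2 and the caveolar protein Cav1 were higher there too, at -1.82 ± 0.31 and -1.33 ± 0.24, although Ptgs2 turned to 0.38 among cells with at least 3 of the 6 arterial genes and Cav1 was at -1.28, under the threshold, without cortical surface library 1. Gja4 and Gja5 were not called between preparations (-0.26 and -1.07, adjusted p = 0.767 and 0.179).

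The 10 largest differences toward bone-associated cells were in Igfbp5, Enpp3, Egr2, Meox2, Ablim3, Cd36, Sox11, Aebp1, Rnf122 and Hspa2. Enpp3, an ectonucleotidase, had no UMI in cortical surface arterial cells and 52.5 and 60.8 CPM in the bone-associated ones, where 49 of 175 cells held it, at least 14.5-fold higher. Egr2, a zinc finger factor, was at least 12.8-fold and Ablim3, an actin-binding protein, at least 8.80-fold higher by the same floor, although Ablim3 was not called without the second bone-associated library (adjusted p = 0.0896). Igfbp5, an IGF-binding protein, was also without a UMI on the cortical surface, but 1 cell held 76.7% of its bone-associated UMIs. Sox11, a transcription factor, was found in 35 of 175 bone-associated and 1 of 108 cortical surface arterial cells.

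**Figure D3:**
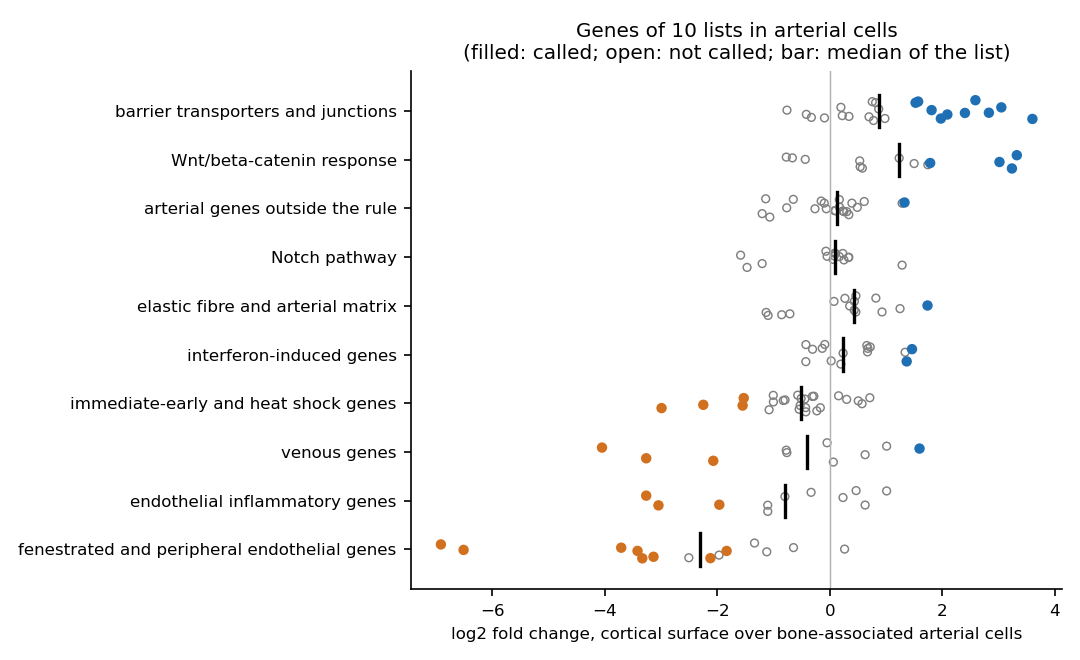
Fitted log2 fold change between cortical surface and bone-associated arterial cells (horizontal axis) for the tested genes of 10 lists (rows), 3 against 2 libraries. Filled points were called (blue, higher on the cortical surface; orange, higher in bone-associated cells), and the bars mark list medians, which run from -2.31 for fenestrated and peripheral genes to 1.23 for Wnt response genes.

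Immediate-early and heat shock genes, which respond within minutes to dissociation among other things, varied between libraries of one preparation. Fos stood at 2597, 3774, 254 and 887 CPM in cortical surface and 5600.2 and 3668 CPM in bone-associated arterial cells, and Hspa1a at 1067, 1576, 84.5 and 261 CPM on the cortical surface and 1334 and 1540.1 CPM in the bone-associated libraries. Cortical surface libraries 3 and 4 were the lowest for both genes, and the preparations overlapped. Of 25 genes tested 4 were higher in bone-associated cells (Ier3, Socs3, Fosl2 and Hsph1) and none on the cortical surface, with a median of -0.51. Without the first bone-associated library Socs3 and Hsph1 were not called (adjusted p = 0.326 and 0.0865), and Socs3 was also lost without the second (0.34) and, at -1.11, without cortical surface library 4. The part of handling in the comparison of preparations was not tested. Among 15 interferon-induced genes Ifit1 and Ifit3 were higher on the cortical surface (1.37 ± 0.31 and 1.46 ± 0.38) and none was lower, and without the first bone-associated library neither was called (adjusted p = 0.226 and 0.32). Ifit1 was also lost without the second (0.0503) and Ifit3 without cortical surface library 2 (0.0722), and without cortical surface library 4 both were under the fold threshold (1.11 and 1.25). None of 8 tested MHC genes was called, and none of 14 basement membrane genes. With 3.71% called over all genes, lists this short would often hold none.

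Of the 22 arterial genes outside the rule 1, a share near the 3.71% over all genes, was higher on the cortical surface, Depp1 (1.33 ± 0.30, adjusted p = 0.00842), none was lower and the median was 0.14. The call of Depp1 was lost without the second bone-associated library (adjusted p = 0.262) and without cortical surface library 1, where it was at 1.12. None of 15 tested Notch pathway genes was called, with log2 values of 0.23 ± 0.27 for Jag1, 0.10 ± 0.29 for Dll4 and 0.34 ± 0.33 for Hey1. Sox17 was at 0.30 ± 0.25 and Clu at -0.06 ± 0.26. An adjusted p that missed the threshold does not show that these levels were equal. Of 15 tested matrix genes 1, Vwa1, was called (1.73 ± 0.30, higher on the cortical surface), with an adjusted p of 0.0679 and 0.0734 without the first and the second bone-associated library.

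**Figure D4:**
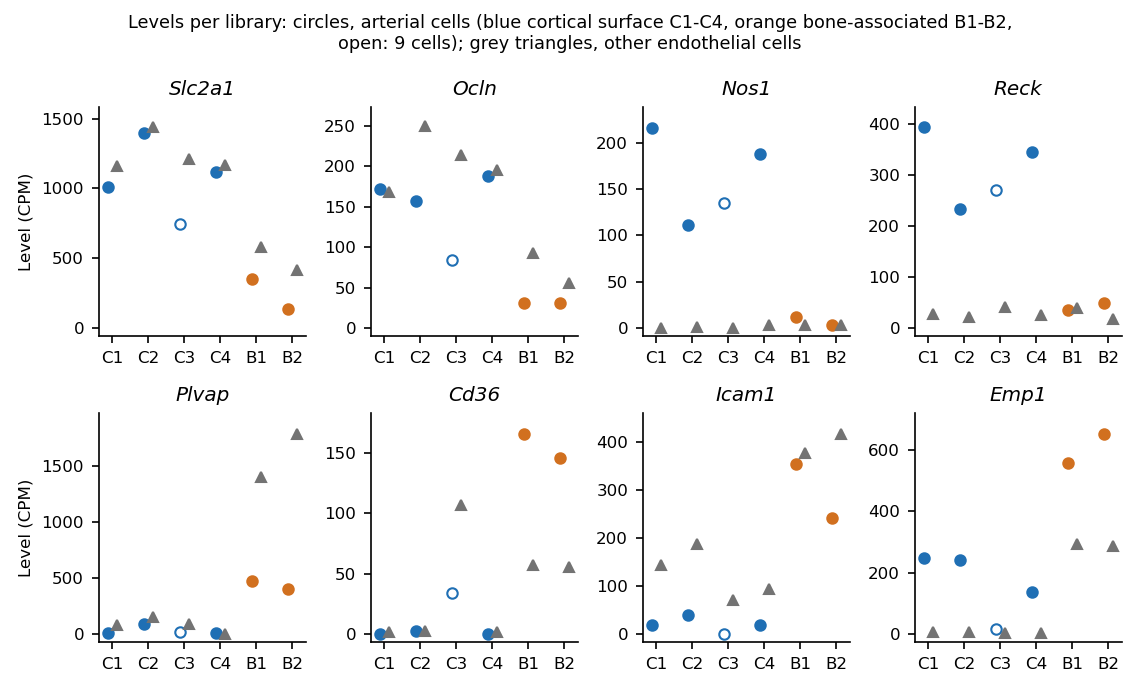
Levels (CPM, linear axis) of 8 genes in arterial cells (circles; blue, cortical surface libraries C1 to C4; orange, bone-associated libraries B1 and B2; open, the library with 9 cells) and in other endothelial cells (grey triangles) of each library. Slc2a1 and Ocln fall from cortical surface to bone-associated libraries in both classes, Nos1 and Reck are high in cortical surface arterial cells, and Plvap, Cd36, Icam1 and Emp1 are high in bone-associated arterial cells.

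Whether the difference between preparations in arterial cells was unlike that in other endothelial cells, in size or direction, was tested as an interaction. Of 8348 genes 131 (1.57%) were called, 104 (1.25%) with a difference further toward the cortical surface in arterial cells and 27 (0.323%) further toward the bone-associated preparation. Nos1 (5.88 ± 0.99, adjusted p = 0.00329), Reck (3.01 ± 0.42, adjusted p = 0.000793), Ptgis (3.91 ± 0.43, adjusted p = 0.000104) and Foxq1 (2.00 ± 0.32, adjusted p = 0.00234) were among the 104, each with its rise on the cortical surface in arterial cells. None of the 24 barrier genes was called in this test, Slc2a1 at 1.14 (adjusted p = 0.0194) included, since its fold was under the threshold. Of 25 immediate-early and heat shock genes 6, and of 14 fenestrated and peripheral genes 4, were called toward the cortical surface and none the other way. These were not rises on the cortical surface. Between preparations in arterial cells no gene of either list was called higher there, and 4 and 8 were called higher in bone-associated cells. Without the second bone-associated library Nos1 and Foxq1 kept their direction but were not called (adjusted p = 0.0683 and 0.0753). Without that library 80 genes were called, and without cortical surface library 4 there were 69.

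Several matrix and arterial genes were in this group through the other endothelial cells, where the bone-associated libraries held more of them. Mgp differed by 3.23 ± 0.35 (adjusted p = 8.62e-05), with 0.46 between preparations in arterial cells and -2.68 in the others. Efnb2 and Dll4 differed by 1.97 ± 0.30 and 1.85 ± 0.42 (adjusted p = 0.00174 and 0.0299), and Efnb2 in other endothelial cells was at 15.3, 25.0, 44.6 and 17.6 CPM on the cortical surface and 155 and 132 CPM in the bone-associated libraries. Of 15 matrix genes 7 were called in this direction, among them Fbn1, Fbln2, Bgn, Emilin1 and Eln, and none in the other. The calls of Dll4, Fbn1 and Emilin1 were lost without the second bone-associated library (adjusted p = 0.325, 0.0946 and 0.0797) and without cortical surface library 4 (0.212, 0.0605 and 0.0527), that of Dll4 also without cortical surface library 1 (0.077), and those of Fbn1 and Emilin1 without cortical surface library 2 (0.123 and 0.0651). Emp1, a tetraspan membrane protein, stood at 7.67, 5.55, 2.97 and 4.81 CPM (cortical surface) and 293 and 287 CPM (bone-associated) in other endothelial cells and at 246, 242, 16.9 and 138 CPM on the cortical surface and 555 and 652 CPM in the bone-associated libraries in arterial ones (4.19 ± 0.31, adjusted p = 2.00e-06). Ssu2, Kank4, Gata6, Dkk2, Cdh13, Col14a1, Col3a1 and Syt15 complete the 10 largest with Nos1 and Emp1. The log2 ratios of mean levels between preparations (CPM + 10) in arterial and in other cells were 0.10 and -1.66 for Ssu2 and 0.13 and -2.12 for Gata6. They were 0.29 and -2.37 for Syt15, -0.26 and -2.24 for Cdh13, 1.27 and -1.33 for Kank4 and 0.54 and -0.40 for Dkk2. For Col14a1 they were 2.96 and -0.12 and for Col3a1 3.02 and 0.64. The call of Dkk2 was lost without any 1 of the 5 libraries (adjusted p from 0.067 to 0.267), that of Col14a1 without any but cortical surface library 1 (0.0682 to 0.131), and that of Col3a1 without the second bone-associated library (0.846).

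Toward the bone-associated preparation, the 10 largest were Krt18, Gpm6a, Fxyd6, Serpinf1, Rgs10, Mt1, St8sia6, Ctla2a, Adgrg6 and Mt2. Fxyd6, which regulates the sodium pump, was at 0, 14.3, 0 and 4.93 CPM on the cortical surface and 91.4 and 151 CPM in the bone-associated libraries in arterial cells and at 44.1, 102.0, 89.2 and 125 CPM (cortical surface) and 36.9 and 32.6 CPM (bone-associated) in the others, so that the preparations were ordered in opposite ways (-5.30 ± 0.51, adjusted p = 3.95e-05). Serpinf1, a secreted inhibitor of vessel growth and a marker on the fibroblast list, was at 14.8, 2.85, 33.8 and 4.93 CPM on the cortical surface and 79.6 and 98.6 CPM in the bone-associated libraries in arterial cells (-4.40 ± 1.08, adjusted p = 0.0474), and without cortical surface library 2 its value turned to 2.94 (adjusted p = 0.76), while without cortical surface library 4 or bone-associated library 2 it was not called (0.113 and 0.274). In cortical surface library 2 the other endothelial cells held 476 CPM of fibroblast markers and 4997 CPM of leptomeningeal markers, against 111 and 120 CPM in its arterial cells, and their part in this result was not tested. The metallothionein Mt1 was at 68.9, 205, 541 and 54.2 CPM on the cortical surface and 797 and 323 CPM in the bone-associated libraries in arterial cells and at 698, 730.2, 654 and 696 CPM (cortical surface) and 541 and 332 CPM (bone-associated) in the others (-2.84 ± 0.36, adjusted p = 0.000381). Icam1 was also called (-1.86 ± 0.35, adjusted p = 0.00837), and its adjusted p was 0.0661 without the first bone-associated library and 0.0588 without cortical surface library 2. For Krt18 1 arterial cell held 43.8% of the bone-associated UMIs and 1 other endothelial cell held all of those on the cortical surface, in library 1. The other endothelial cells of that library also held 59035 CPM of choroid plexus markers, against 56.5 to 203 CPM in the other 5 libraries, and 1 cell held 99.7% of the cortical surface UMIs of their leading gene Ttr. The part of that cell in the Krt18 value was not tested apart from leaving out the library. The fitted value of Krt18 was -2.33 without cortical surface library 1 (adjusted p = 0.979) and not called without the second bone-associated library (0.125). Gpm6a was not called without cortical surface library 1 (0.0659), Rgs10 without cortical surface library 4 (0.0596), and St8sia6, Ctla2a, Adgrg6 and Mt2 each lost their call without 2 or more of the libraries in turn.

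**Figure D5:**
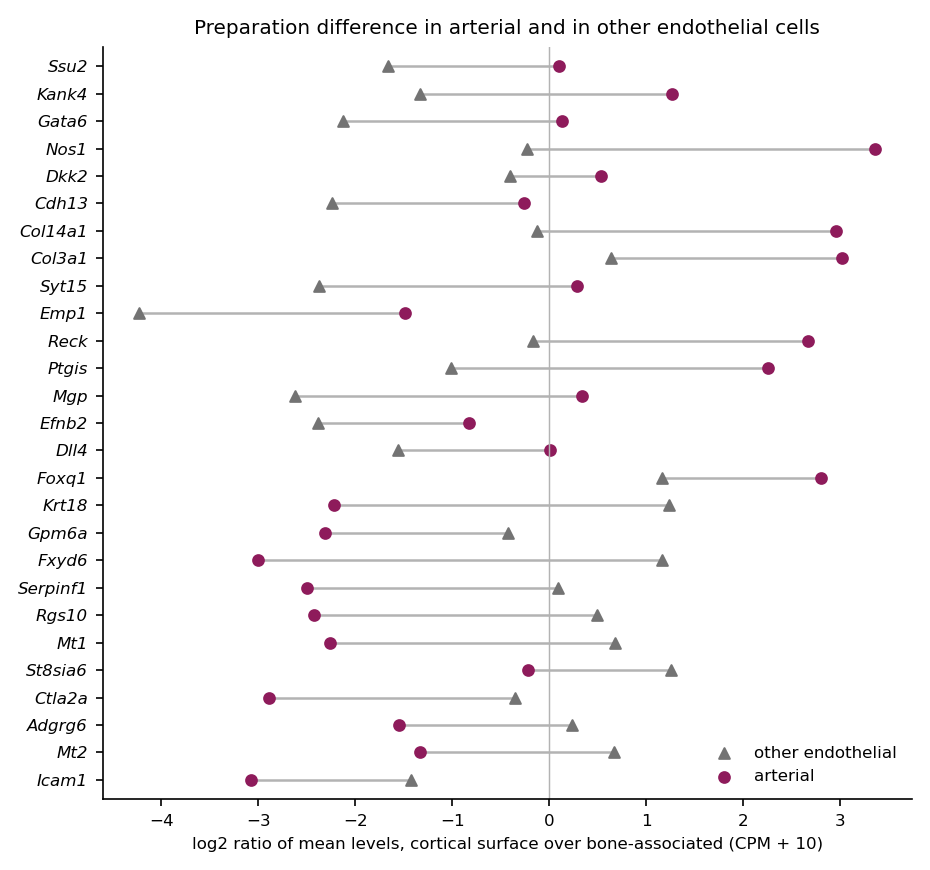
Log2 ratio of the mean level on the cortical surface over that in the bone-associated libraries (CPM + 10, 3 against 2 libraries, horizontal axis) for 27 genes called in the interaction test, in arterial cells (circles) and other endothelial cells (triangles). For Nos1 the ratios are 3.36 and -0.22, and for Fxyd6 they are -3.00 and 1.17.

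Within the bone-associated arterial cells, Gkn3 and Plvap divided the members in part. A Plvap UMI was present in 23 of 61 cells with Gkn3 (37.7%, exact 95% interval 25.6% to 51.0%) and in 69 of 114 without it (60.5%, 50.9% to 69.6%). The shares were 36.4% and 60.6% in the first library and 38.5% and 60.5% in the second. On the cortical surface Plvap was in 4 of 83 cells with Gkn3 and 2 of 25 without. In bone-associated cells without Gkn3 the Plvap level was 676 and 557 CPM, and in those with Gkn3 it was 66.2 and 46.6 CPM, the cells scaled to their own total. Mgp ran the other way, at 2489 and 3198 CPM without Gkn3 and 12137 and 19651 CPM with it, and Gja5 at 10.1 and 31.5 against 148 and 178 CPM. Cortical surface libraries 2 and 4 had the same order, with Mgp at 7178 and 4886 against 12756 and 14007 CPM and Gja5 at 0 and 0 against 72.4 and 70.2 CPM. Not every arterial gene followed, since in bone-associated cells Efnb2 was at 300 and 219 CPM without Gkn3 and 153 and 204 CPM with it. Sox17 went opposite ways in these 2 libraries. Vwf of the venous list was at 1021 and 751 against 290 and 480 CPM. Gkn3 helped to choose the cells, so these values are a description with no test.

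The comparison of preparations was repeated with only the arterial cells that held Gkn3, a setting chosen after these values were seen. It called 136 of 7694 genes, 63 higher on the cortical surface and 73 in bone-associated cells. Of the 293 genes called before, 268 were tested in this setting, 107 were called in the same direction and 2 changed sign. With cells that held a Plvap UMI left out of both classes 161 of 7603 genes were called and 143 were shared with the first list. In the interaction test that same setting called 73 genes, of which 30 were among the 131, and 10 of the 131 changed sign.

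Markers of other cell types that the suspension could hold were summed in the arterial cells. The 8 neuron markers came to at most 5.70 CPM and the 7 dural fibroblast markers to at most 8.55 CPM in any library. The 7 lymphatic markers summed to 44.3, 59.9, 16.9 and 44.4 CPM on the cortical surface and to 40.6 and 124 CPM in the bone-associated libraries, led by Flt4 in each. Pdpn had no UMI in arterial cells, Prox1 had none on the cortical surface and 11.9 and 9.17 CPM in the bone-associated libraries, and 6 of the 7 had a UMI in bone-associated library 2. The 9 pericyte markers summed to 1761 and 946 CPM in cortical surface libraries 1 and 2, led by Rgs5 at 1456 and 570 CPM, and to between 14.8 and 74.5 CPM in the other 4. Smooth muscle markers summed to 1107, 385, 0 and 9.86 CPM on the cortical surface and to 830 and 247 CPM in the bone-associated libraries, against 381, 263, 11.9 and 32.1 CPM and 77.5 and 719 CPM in the other endothelial cells. In arterial cells Acta2 led in cortical surface libraries 1 and 2 and bone-associated library 2, Tagln in bone-associated library 1, and the value of cortical surface library 4 was Pln alone. Ptgds, a leptomeningeal marker, was at 78.7, 111, 0 and 0 CPM on the cortical surface and 3.39 and 0 CPM in the bone-associated libraries in arterial cells and was called higher on the cortical surface (5.48 ± 0.95) and in other endothelial cells (-4.15 ± 0.59), the first not without the second bone-associated library (adjusted p = 0.148) or without cortical surface library 2 (0.052). The other endothelial cells, to which arterial cells were compared in 2 of the tests, held more of some markers. Beside the choroid plexus markers of cortical surface library 1 and the leptomeningeal and fibroblast markers of cortical surface library 2 given above, immune markers summed to 1165 and 941 CPM in cortical surface libraries 3 and 4, led by Lyz2, and to at most 80.1 CPM in the rest. Pericyte markers summed to 1029 and 1991 CPM in the other cells of cortical surface libraries 1 and 2 and to 377 CPM in those of bone-associated library 2. The part of these markers in the tests was not tested gene by gene. A UMI of at least 2 of 4 mural genes was present in 14 of the 283 arterial cells, 9 of them in cortical surface library 2, and of at least 2 of 4 fibroblast genes in 4 cells. Without these cells 339 genes were called between preparations, 409 between arterial and other endothelial cells and 145 in the interaction. The 4 erythroid genes tested were called higher on the cortical surface and 3 of them in other endothelial cells, and cortical surface library 4 held 16.2% hemoglobin in its other endothelial cells and 0.412% in its arterial ones. Leaving hemoglobin genes out gave 302, 378 and 123 calls. The part of free RNA in single genes was not tested.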

How the data were processed

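Droplet single-cell libraries (10x Genomics) were made from 4 cortical surface-associated and 2 bone-associated preparations. The authors deposited UMI counts for each gene in each barcode, produced by Cell Ranger on mm10 (version 3 per the labels, 6.1.2 per the file headers), and no normalized values. The enzymes named in the labels and in the study's methods differ. The arterial cells, the 31 gene lists and the tests were chosen with earlier results of these data known.

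Cells were chosen by the rule given at the start. No doublet was removed in the main analysis, and a simulation-based caller marked none of the arterial cells. Counts were summed per library and class, and sums of fewer than 10 cells entered no test. Genes found in more than 10% of the cells of at least 1 group of a comparison, without the 12 genes of the rule, were tested with the quasi-likelihood test of edgeR 4.0.16 in R 4.3.3 (TMM, Benjamini-Hochberg adjustment). The groups were the preparations, the classes or, for the interaction, each class in each preparation. Arterial and other endothelial cells were compared with library as a block, and the interaction likewise. Called means an adjusted p below 0.05 and a log2 fold change of 1.3 or more in size. The test was tested on simulated data, and the outcome is not given here. DESeq2 1.42.0, other filters, thresholds, thinning and leaving out each library were tried as alternatives. Genes named by size were the 10 largest called per direction whose higher group held 50 UMIs or more and whose groups did not overlap (within libraries, 1 direction in all), without hemoglobin, mitochondrial and unnamed genes, and the others belong to the rule or the lists. P-values of the edgeR tests set a difference against the spread between pooled libraries, counting error included, and intervals cover counting error only. 1 item is not reported here.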

Additional observations from a re-analysis of the deposited data

Results flagged for a closer look

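In 3 of 47 quantities examined over the 4 cortical surface libraries, 1 library stood apart from the rest by the gap between it and its neighbour over the whole range (Dixon's 95% criterion), and chance alone flags about 5% of such groups. These were the arterial levels of Cd36 (0.916, library 3 with 9 cells), Nr2f2 (0.93, library 2) and Plvap (0.856, library 2).

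The remaining results were singled out because the preparations differed by another amount in arterial than in other endothelial cells, tested as an interaction. The log2 differences of differences toward the cortical surface were 7.30 for Ssu2, 6.57 for Kank4, 6.02 for Gata6, 5.88 for Nos1, 5.24 for Dkk2, 4.75 for Cdh13, 4.59 for Col14a1, 4.44 for Col3a1, 4.24 for Syt15 and 4.19 for Emp1. Among genes of the lists they were 3.91 for Ptgis, 3.01 for Reck, 2.00 for Foxq1, 1.97 for Efnb2 and 1.85 for Dll4, and for matrix genes 3.42 for Fbn1, 3.31 for Fbln2, 3.23 for Mgp, 3.06 for Bgn, 2.53 for Emilin1 and 2.07 for Eln. Toward the bone-associated preparation they were -8.84 for Krt18, -7.39 for Gpm6a, -5.30 for Fxyd6, -4.40 for Serpinf1, -3.49 for Rgs10, -2.84 for Mt1, -2.64 for St8sia6, -2.54 for Ctla2a, -2.22 for Adgrg6, -2.03 for Mt2 and -1.86 for Icam1. Fitted values of genes with few UMIs in a class depend on the prior count of the fit and are not bounds. In the 5 fits that each left out a library the call was lost in 5 for Dkk2, in 4 for Col14a1 and Mt2, in 3 for Dll4, Fbn1, Emilin1, Adgrg6 and Serpinf1, in 2 for Krt18, Icam1, Ctla2a and St8sia6, and in 1 for Nos1, Foxq1, Col3a1, Gpm6a and Rgs10. Serpinf1 turned to 2.94 without cortical surface library 2, and Krt18 was at -2.33 (adjusted p = 0.979) without cortical surface library 1.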

How the results depend on the processing

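Counts of called genes moved by more than 1.5 times under some settings. Between preparations in arterial cells the count of 293 became 159 with DESeq2, 97 with cells thinned to 1500 UMIs, 136 with arterial cells holding Gkn3 only and 161 without cells holding Plvap, the last pair chosen after seeing the data, and leaving out 1 library gave 109 to 318. Between arterial and other endothelial cells 381 became 636 with no filter on low genes, 178 with thinned cells and 245 with no library block, and leaving out 1 library gave 351 to 394. For the interaction 131 became 80 with DESeq2, 205 with no filter, 76 with thinned cells and 73 without cells holding Plvap, and leaving out 1 library gave 69 to 117. Thinning and the missing filter change how many genes are tested; for the others the cause was not tested. Of the genes higher on the cortical surface, the share among all called went from 132 of 293 to 31 of 109 without the second bone-associated library and to 98 of 176 without the first.

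Numbers 1 and 2 occur in both preparations, with no source that ties them. Deviations of equally numbered arterial sums correlated at r = 0.12 over 7906 genes, with 2 pairs only. With a replicate block over these 4 libraries 259 genes were called between preparations, against 318 without the block in the same libraries. The interaction already had library as a block, so the replicate block gave the 69 calls that leaving out cortical surface library 4 gave.

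Of the genes given as called, 20 of 53 between preparations, 34 of 46 between classes and 8 of 32 in the interaction kept their call under every alternative in which they were tested, and with thinned cells only 31, 28 and 25 of them were tested. Between preparations these 20 included Nos1, Slc2a1, Ocln, Lsr, Reck, Foxq1, Cd36, Fabp4, Meox2 and Icam1. Direction was reversed for Nrp2 (0.14 with arterial cells holding Gkn3 only), for Ptgs2 (0.38 with at least 3 of the 6 arterial genes, 0.76 with cells holding Gkn3 only, 0.54 without cells holding Plvap) and for the Serpinf1 interaction (-5.79 to 2.94 when 1 library was left out, the latter without cortical surface library 2). The difference in arterial share, 12.3 points, ranged from 5.53 with thinned cells to 15.1 without the second bone-associated library. Summed depth was lowest in cortical surface library 3, with 66838 UMIs from 9 arterial cells. The median per arterial cell was lowest in cortical surface library 4, at 4007 UMIs against 4652 in library 3.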
